A study of Drosophila melanogaster with 4 samples.

Results

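The genes described here set the length of the actin (thin) filament of the sarcomere and turn actin over. The list held 10 genes of known role: sals and tmod, which act at the pointed end of the filament; cpa and cpb, which encode the barbed-end capping protein; chic, capt and twf, whose products bind actin monomers; tsr and flr, which sever and disassemble filaments; and Lasp, which was not analysed here because no row for it was found in the files used. The members were chosen by symbol and not by a rule on their measured values, but with earlier results of these data known. They are 9 of the 10626 genes in the gene table, and 72 of the 46187 exon bins in the exon table. The data are mRNA-Seq of the indirect flight muscles (IFM), the stretch-activated fibrillar muscles of the thorax, from 1 d adult Drosophila melanogaster. The control was w1118, a laboratory strain, and the mutant was bru1M3, which carries a splice-trap cassette in bru1, the gene for the RNA-binding splicing factor Bruno1 (Bru1). There were 2 replicates of each genotype, each a pool of flies, and the mutant was represented by a single allele. Flies of both genotypes were kept at 27 °C, and no other allele or agent was named in the labels.

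An actin filament has ends that behave differently. Monomers are added mainly at the barbed end, which in muscle is anchored at the Z-disc and closed by capping protein, whereas the pointed end faces the middle of the sarcomere and is closed by Tropomodulin (Tmod). Sarcomere length short (Sals) lets thin filaments of flight muscle elongate at the pointed end. Cofilin, encoded by tsr, severs older filaments together with flr, the fly homologue of AIP1. Profilin (chic) and cyclase-associated protein (capt) return the released monomers for a new round of assembly, and Twinfilin (twf) binds monomers and barbed ends.

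The reads behind the deposited values came to 30384053 to 34105524 per library. Mitochondrial transcripts made up 72.6% and 63.7% of them in the control and 41.2% and 29.0% in the mutant, which left 8326712 to 21962285 reads for nuclear genes. The targeted gene, bru1, had 1807 and 1386 normalized counts in w1118 and 10618 and 9976 in bru1M3 (log2 fold change 2.70, SE 0.19, limma adjusted p = 1.9e-04). The paper places the cassette just upstream of exon 18 and reports that the mutant transcript ends early there. Bins were split at number 18, but a bin number need not be an exon number. In the exon table all 7 bru1 bins from bin 18 to bin 24 had lower usage scores in bru1M3, with differences from -10.4 to -3.84. Of the 12 scored bins before bin 18, 10 had higher scores in bru1M3. The IFM markers Act88F, fln, TpnC4 and salm summed to 849441 to 872541 normalized counts in w1118 and 883234 to 1194050 in bru1M3. Act88F made up most of each sum and alone was higher in bru1M3 (log2 fold change 0.51). The log2 fold changes of fln, TpnC4 and salm were -0.35, -0.21 and -0.40. None of the 4 passed the test.

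All 9 genes with a row were higher in bru1M3 IFM than in w1118. Their fold changes ran from 2.79 for tmod to 17.2 for capt, and their median log2 fold change was 2.06, beside -0.00 over the 9228 genes tested. Each of the 9 passed the limma test at an adjusted p under 0.05 and had a log2 fold change of at least 1, which 9.76% of all tested genes did in this direction. An adjusted p under 0.05 alone was reached by 22.2% of tested genes in either direction, with 12.8% higher and 9.33% lower. In each of the 9 genes the lower bru1M3 library lay above the higher w1118 library, by a factor of at least 2.57. Such a lack of overlap was seen in 32.9% of tested genes in this direction. The smallest two-sided p that an exact permutation of 2 libraries against 2 allows is 0.333. The calls therefore depend on limma's pooling of variance over genes, and the p-values measure only the spread between these pools. In bulk tissue, more cells of a type and more RNA per cell cannot be told apart.

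**Figure D1:**
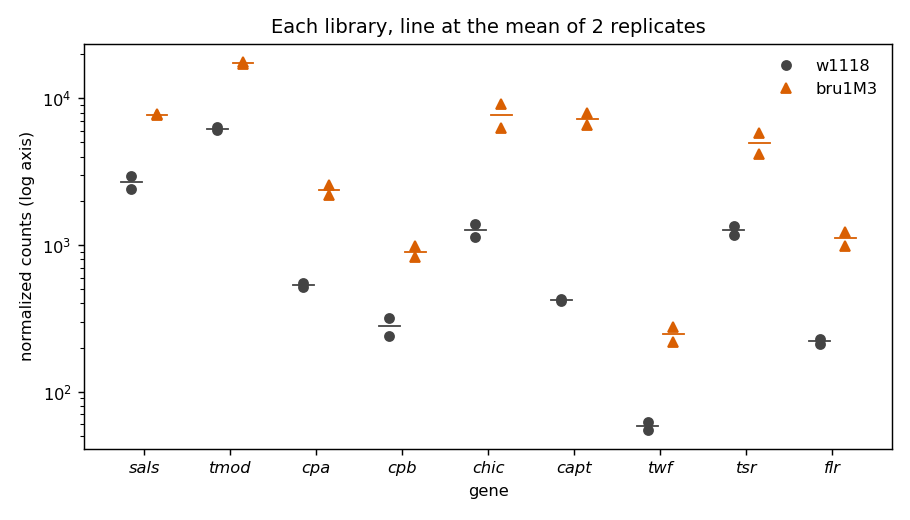
Normalized counts (log axis) of the 9 genes in each library, with w1118 as circles, bru1M3 as triangles and a line at the mean of 2 replicates. The triangles lie above the circles in all 9 genes, with the widest gap in capt and the narrowest fold in tmod.

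The genes of the pointed end had the smallest fold changes of the 9. sals (FBgn0051374, 3R:11437547-11451791, minus strand) had 2398 and 2951 normalized counts in w1118 and 7760 and 7711 in bru1M3. The mutant libraries lay close together and well apart from the control. The mean rose from 2675 ± 391 to 7735 ± 34.5 (SD, n = 2 each), a 2.91-fold change (95% confidence interval 2.19 to 3.86, limma adjusted p = 0.00115). tmod (FBgn0082582, 3R:30532607-30578905, plus strand) had 6409 and 6033 normalized counts in w1118 and 17096 and 17575 in bru1M3. It had the highest count of the 9 in every library, and the narrowest spread between the mutant replicates after sals. Its rise was 2.79-fold (95% confidence interval 2.12 to 3.67, limma adjusted p = 0.00121). By size of the log2 fold change, sals stood at rank 731 and tmod at rank 773 of 9228.

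Per kilobase of annotated exon, the ratio of sals to tmod was 0.837 and 1.09 in w1118 and 1.02 and 0.981 in bru1M3. The groups overlapped, so a shift in the proportion of elongation factor to cap was not detectable with these libraries. The same exon length was used for both genotypes, although exon use in both genes differed between them, as described below. A change in transcript length would also move the counts and this ratio, and was not separated from a change in transcript number. Both genes also share ground with others. sals shares 14007 bases of its span with CG17230, a gene on the opposite strand, and 297 of its exon bases (7.98%) overlap exons of that gene, which had 11.9 to 23.0 normalized counts in the 4 libraries and did not pass the test. mir-4945, a microRNA gene in an intron of sals on the same strand, named here after its values were seen, had 0 and 1.10 normalized counts in w1118 and 36.2 and 46.9 in bru1M3. The strand setting of the authors' counting is not given in the sources used here, so reads of overlapping genes may have been shared between them.

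The subunits of the barbed-end cap had larger fold changes than sals and tmod, with confidence intervals that overlapped theirs. cpa (FBgn0034577, 2R:21057787-21059883, plus strand), the alpha subunit, had 555 and 516 normalized counts in w1118 and 2554 and 2179 in bru1M3. It was 4.40-fold higher (95% confidence interval 3.33 to 5.83, limma adjusted p = 0.000313). cpb (FBgn0011570, 2L:1704902-1706962, plus strand), the beta subunit, had 240 and 320 normalized counts in w1118 and 979 and 822 in bru1M3. The replicates of cpb were further apart than those of cpa in w1118, and its 3.23-fold rise carried a wider interval (2.26 to 4.62, limma adjusted p = 0.00222). Capping protein works as a heterodimer of these subunits. Per kilobase, the ratio of cpa to cpb was 2.32 and 1.62 in w1118 and 2.62 and 2.66 in bru1M3, so the gap between the genotypes was smaller than the distance between the w1118 libraries. Exons of CG15653, on the opposite strand, cover 104 bases (5.42%) of cpa. CG15653 moved the other way, with 71.5 and 57.0 normalized counts in w1118 and 16.4 and 12.3 in bru1M3.

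Among genes for monomer-binding proteins, capt rose most. capt (FBgn0261458, 2L:1151678-1158262, minus strand), which recharges and recycles monomers, had 427 and 412 normalized counts in w1118 and 7889 and 6593 in bru1M3. The control libraries were almost alike, and both mutant libraries stood far above them. The change was 17.2-fold (95% confidence interval 13.0 to 22.6, limma adjusted p = 6.9e-05), and only 1.04% of tested genes had a larger log2 fold change. chic (FBgn0000308, 2L:5972115-5981018, minus strand), the fly profilin, had 1133 and 1387 normalized counts in w1118 and 9085 and 6294 in bru1M3. The bru1M3 replicates of chic were the furthest apart of the 9 genes, at a ratio of 1.44, yet the lower of them was well above both control libraries. The rise was 6.03-fold (95% confidence interval 4.20 to 8.64, limma adjusted p = 0.000381).

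twf (FBgn0038206, 3R:14122654-14124474, plus strand) had the lowest level of the 9, with 54.5 and 62.4 normalized counts in w1118 and 276 and 219 in bru1M3. Behind these values were 32 and 57 reads in the control and 404 and 285 in the mutant. The 4.16-fold rise therefore had the widest relative interval of the 9 (2.64 to 6.56, limma adjusted p = 0.0027). Exons of 140up on the opposite strand cover 312 bases of twf, 22.7% of its exon length. 140up fell from 168 and 190 normalized counts to 102 and 86.9 (log2 fold change -0.92, limma adjusted p = 0.0461), so the 2 overlapping genes moved in opposite directions.

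The genes of filament severing had fold changes close to those of the capping protein subunits. tsr (FBgn0011726, 2R:24044453-24046805, minus strand), the fly cofilin, had 1173 and 1339 normalized counts in w1118 and 5772 and 4140 in bru1M3. It was 3.90-fold higher (95% confidence interval 2.79 to 5.44, limma adjusted p = 0.000791), with mutant replicates nearly as far apart as those of chic. flr (FBgn0260049, 3L:13412843-13416453, plus strand), the cofilin cofactor, had 211 and 229 normalized counts in w1118 and 1234 and 984 in bru1M3. The rise of flr was 4.99-fold (95% confidence interval 3.60 to 6.92, limma adjusted p = 0.000395). In 8 of the 9 genes bru1M3 replicate 1 was the higher mutant library, with tmod as the exception. That library also had the larger mitochondrial share of the mutant pair. After scaling to equal totals of nuclear genes all 9 genes still passed.

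**Figure D2:**
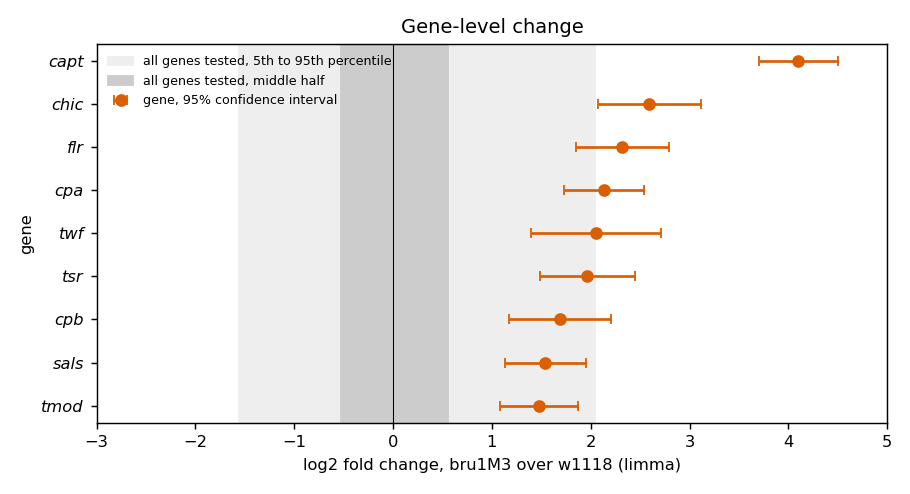
Log2 fold change of bru1M3 over w1118 for each gene (points) with the 95% confidence interval of limma (bars), and, in grey, the range of all 9228 genes tested from the 5th to the 95th percentile (-1.55 to 2.04) and from the 25th to the 75th (-0.53 to 0.55). capt stands apart at 4.10, and the intervals of the other 8 genes start at 1.08 or higher.

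Compared per kilobase of exon, the order of the genes differed between the genotypes. In w1118 the mean level per kilobase was highest for tsr (1708 normalized counts per kilobase), followed by tmod (748), sals (719), chic (479), cpa (279), cpb (145), capt (130), flr (93.9) and twf (42.4). The libraries of tmod and sals overlapped in that order, as did those of cpb and capt. In bru1M3 tsr again came first (6743 per kilobase), followed by chic (2921), capt (2240), tmod (2084), sals (2079), cpa (1234), flr (473), cpb (468) and twf (180). Here the libraries of chic and capt, of capt, tmod and sals, and of flr and cpb overlapped. The gene whose place moved most was capt, from the seventh place to the third. Exon length was taken over all annotated transcripts and was the same for both genotypes. The transcripts in use in the muscle may be shorter, and their length may differ between the genotypes.

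Ratios between the genes put these shifts within each library, where the scaling of a library has no part. In w1118 capt stood at 0.0828 and 0.0700 of tsr per kilobase, and in bru1M3 at 0.311 and 0.362. The ratio of capt to chic went from 0.307 and 0.242 to 0.707 and 0.853, and the ratio of chic to tsr from 0.270 and 0.289 to 0.439 and 0.425. The transcripts for monomer recycling thus took a larger place beside that for cofilin in both mutant libraries. The ratio of flr to tsr moved little, from 0.0565 and 0.0537 to 0.0670 and 0.0745. The ratio of twf to chic was the only one of the 7 computed that was lower in bru1M3, at 0.0918 and 0.0861 in w1118 and 0.0580 and 0.0666 in bru1M3. Groups of 2 cannot reach an exact p below 0.333, so these ratios are given as values.

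Exon use was read from the usage score that the authors' DEXSeq analysis gives each bin in each genotype. A bin is a stretch of exon bounded by the nearest annotated exon edges, and the score is a variance-stabilized measure of its reads, set against the remaining bins of that gene. On that scale a score of 5 went with a median bin mean of 34.0 normalized counts, 10 with 204, 15 with 810 and 20 with 2982, so differences in score are not fold changes. There is a single score per genotype, with no replicate error and no test, and a rise of some bins of a gene lowers the others. A difference of at least 2.05, the 95th percentile of the absolute difference over 44087 bins with a mean of at least 10, was used to pick bins. Of all these bins, 2.2% lay at least that much higher in bru1M3 and 2.8% at least that much lower, and the median absolute difference was 0.535. Of the 72 bins of the 9 genes, 5 were higher and 9 lower by this measure. Of the 29 bins of sals and tmod, 13 were past it, as was 1 of the 43 bins of the other 7 genes. The cutoff was the same at every level. On this scale a given difference is a smaller fold change in a bin with more reads.

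In sals, the largest shift of any bin of the 9 genes fell in a long internal exon. Bin 9 (3R:11447119-11448359, 1241 bases, 1048 of them coding) is annotated in 5 of 8 transcripts (RB, RC, RD, RF and RG), and its score was 11.1 in w1118 and 18.8 in bru1M3. That is a difference of 7.63. In the mutant, shared bins 2 and 3 both scored 19.9 over only 223 and 263 bases. The score follows the reads of a whole bin and is not scaled by length. It therefore does not give the share of transcripts that include bin 9. Bin 10, a piece of 3 bases next to it that shares its reads, went from 4.07 to 11.0. Bin 14 (3R:11451632-11451791), the first exon of transcripts RE and RH, moved the other way, from 14.7 to 10.9. RE and RH do not contain bin 9. Thus the bins that tell the longer coding forms from RE and RH shifted in opposite directions.

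Not every bin of the longer sals forms was higher. Bin 12, the annotated first exon of the transcripts that hold bin 9, had only 19.7 normalized counts on average, and its score was 4.67 in w1118 and 2.89 in bru1M3. Bin 8, the first exon of transcript RA, was also weak and went from 2.86 to 5.12. Downstream, a coding cassette of 108 bases (bin 4, in transcripts RA, RB, RC and RH) went from 17.96 to 15.7, and the last exon (bin 1) from 18.9 to 16.5. Each bin from 1 to 7 was lower in bru1M3, with differences from -2.38 to -1.09, and the cassette's difference of -2.21 compares with -1.87 and -1.83 in bins 2 and 3, which every transcript contains.

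**Figure D3:**
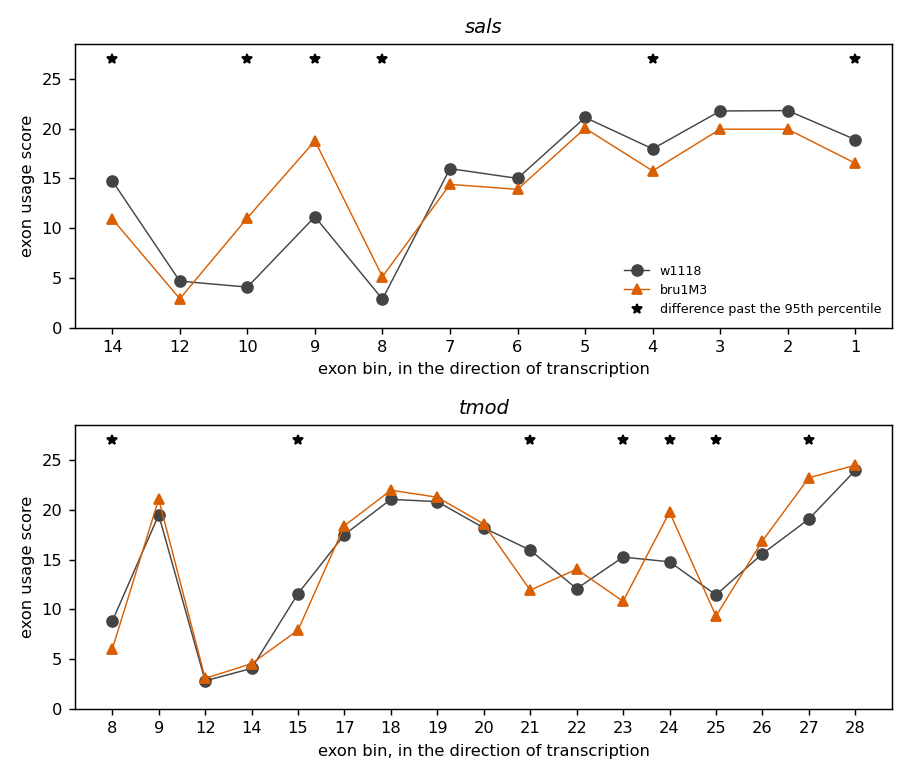
The authors' exon usage score of each bin of sals and tmod, ordered along the direction of transcription, in w1118 (circles) and bru1M3 (triangles), with stars over bins whose difference was at least 2.05. Of the starred bins of sals, bins 8, 9 and 10 are higher and bins 1, 4 and 14 lower in bru1M3. Of those of tmod, bins 24 and 27 are higher and bins 8, 15, 21, 23 and 25 lower.

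In tmod, the exons that all 18 annotated transcripts share differed little and the 3' region shifted. Bins 17 to 20, the shared coding exons, differed by 0.39 to 0.91 in score. Bin 24 (3R:30575432-30575948, 517 bases, 74 of them coding, in transcripts RK, RO, RP and RQ) went from 14.8 in w1118 to 19.8 in bru1M3, the largest rise in the gene. Bin 27 (3R:30577179-30577558, in 14 of 18 transcripts) went from 19.1 to 23.2. Bin 28, the last exon of 17 transcripts, was at 24.0 and 24.5. The score of bin 24 was above that of shared bin 20 in bru1M3 (18.6) and below it in w1118 (18.2). Bin 20 has only 148 bases, and scores are not scaled by length. The crossing therefore does not show that bin 24 was used more than bin 20.

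The bins around bin 24 fell. Bin 23 went from 15.2 to 10.8, bin 21 from 15.9 to 11.9 and bin 25 from 11.4 to 9.32. As whole pieces these stretches are exonic in transcript RP alone, and lie between exons of the other forms, except that bin 21 also holds a shorter exon of RR. Reads over sequence that most transcripts treat as intron were thus relatively fewer in bru1M3, while bins 22 and 26, exons of other forms, differed by 1.96 and 1.30 in the upward direction. At the 5' end, bin 15 (3R:30563180-30563481), the first exon of transcript RA, went from 11.6 to 7.90. Bin 8, a weak 5' bin, went from 8.79 to 5.997. Bin 9, the first exon of transcript RH and the strongest 5' bin in both genotypes, went from 19.5 to 21.1, short of the threshold.

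In the other 7 genes 1 bin was past the threshold. The median absolute difference was 0.96 in cpb and 0.58 in capt, above the 0.535 of all bins. It was between 0.16 and 0.47 in the rest. capt had 8 bins, of which bin 6 (2L:1154552-1155053, 502 coding bases found in transcript RB alone) went from 8.83 to 6.40, a difference of -2.42. Its exons shared by all transcripts (bins 1 to 4) lay 0.44 to 0.84 higher in score. Bins 7 and 8, which hold its first exons, differed by 0.24 and -0.17. chic ranged from -0.59 in bin 13 to 1.57 in bin 11, a weak first exon of transcript RE. cpb ranged from -1.37 in bin 4 to 1.41 in bin 2, and flr from -1.18 in bin 1 to 0.89 in bin 5. cpa ranged from -0.84 in bin 1 to 0.47 in bin 2, tsr from -0.22 in bin 3 to 0.53 in bin 1, and twf from -0.32 in bin 3 to 0.20 in bin 4. cpa, tsr and twf have a single annotated transcript each.

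**Figure D4:**
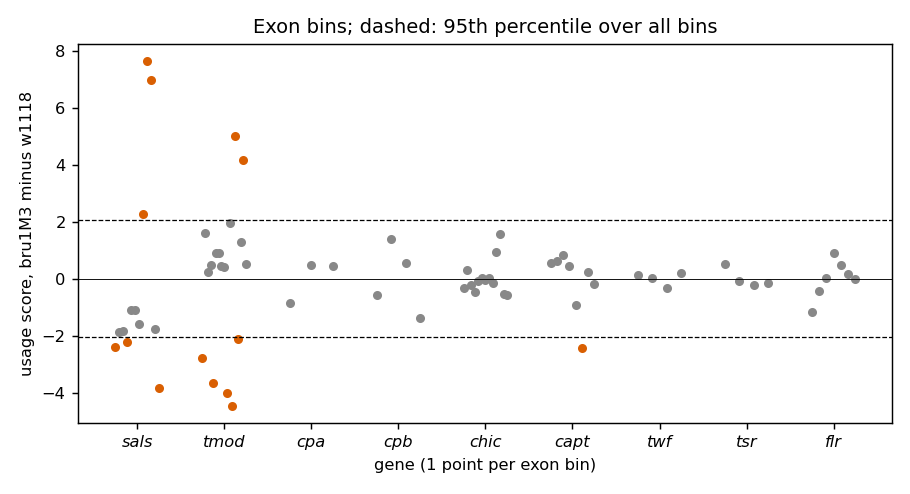
Difference in usage score (bru1M3 minus w1118) of each of the 72 exon bins, by gene, with dashed lines at plus and minus 2.05. Points past the lines are in sals, tmod and, for 1 bin, capt.

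Beyond the 9 genes, 35 genes in 6 lists of actin biology were followed. Of these, 14 were higher in bru1M3, 1 was lower and 20 did not pass the test, beside 12.8% and 9.33% of all genes in those directions. The Arp2/3 complex, which starts branched filaments, had 6 of 8 subunit genes higher and a median log2 fold change of 1.11. Arp3 had 158 and 279 normalized counts in w1118 and 987 and 958 in bru1M3 (log2 fold change 2.20, SE 0.28, limma adjusted p = 0.00208). The log2 fold changes of Arpc2 and Arpc1 were 2.12 and 1.83. The count of 6 depended on the scaling and on the libraries. It was 4 after scaling to equal totals of nuclear genes, and it also fell when some single libraries were left out, most without bru1M3 replicate 1. Arp3 had an adjusted p of at most 0.0104 under every alternative, and Arpc2 and Arpc1 had lower ones.

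Genes that act on Arp2/3 or on cofilin were mostly not called. Of 7 activators of the complex (median log2 fold change -0.15), Vrp1, the fly verprolin, alone passed, at 0.76 on the log2 scale (limma adjusted p = 0.0251). The call of Vrp1 was lost without w1118 replicate 1 (adjusted p = 0.115), without bru1M3 replicate 1 (0.0704) and without bru1M3 replicate 2 (0.0698), and also after quantile normalization (0.0554) and with equal nuclear totals (0.0793). ssh, the phosphatase that activates cofilin, rose from 408 and 391 normalized counts to 1437 and 1125 (log2 fold change 1.67, limma adjusted p = 0.00128). The median of these 3 cofilin regulators was 0.17, since LIMK1 and cdi, whose kinases act on cofilin in the opposite sense, had log2 fold changes of -0.01 and 0.17 and did not pass.

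Among 9 further actin-binding factors 4 were higher, and the median log2 fold change was 0.55. The count was 2 without w1118 replicate 2, without bru1M3 replicate 1 and after scaling to equal totals of nuclear genes. coro, the fly coronin, had 2765 and 3082 normalized counts in w1118 and 16634 and 15551 in bru1M3 (log2 fold change 2.46, limma adjusted p = 0.000186). cib, a beta-thymosin protein that binds monomers, rose by 1.21 on the log2 scale and GMF, which debranches Arp2/3 networks, by 1.04. GMF lost its call after scaling to equal totals of nuclear genes (limma adjusted p = 0.0922). It also lost the call when any single library was left out (log2 fold change 0.96 to 1.12). Of the 2 genes for actin-responsive transcription, bs (serum response factor) stood at 0.72 on the log2 scale with a limma adjusted p of 0.0572, and Mrtf, also at 0.72, did not pass either. bs passed with a minimum of 50 (adjusted p = 0.0442) and with robust empirical Bayes (0.0443), and Mrtf without w1118 replicate 1 (0.0228). Over the 6 lists, 9 genes in place of 14 were called higher when bru1M3 replicate 1 was left out, and also 9 after scaling to equal totals of nuclear genes.

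The 6 actin genes did not move together, and their median log2 fold change was 0.36. Act57B, used in larval muscle, had 1023 and 4286 normalized counts in w1118 and 53651 and 24634 in bru1M3 (log2 fold change 4.12, SE 0.64, limma adjusted p = 0.00483). Its replicates were far apart in both genotypes. The log2 fold change was 3.08 without w1118 replicate 1 and 5.15 without w1118 replicate 2, and with robust empirical Bayes the adjusted p was 0.0613. Act42A, a cytoplasmic actin, was higher by 0.97 on the log2 scale (limma adjusted p = 0.0187), a call lost without w1118 replicate 1 (adjusted p = 0.0761), without bru1M3 replicate 2 (0.053) and after quantile normalization (0.0543). Act79B, an actin of tubular muscle, fell from 3521 and 5031 normalized counts to 1174 and 2255 (log2 fold change -1.37, limma adjusted p = 0.0233). Act88F, the flight muscle actin, had 548013 and 520361 normalized counts in w1118 and 656410 and 881778 in bru1M3, and did not pass (0.51 on the log2 scale, limma adjusted p = 0.511), although it passed after quantile normalization at 1.25 (adjusted p = 0.00163) and without bru1M3 replicate 1 at 0.72 (adjusted p = 0.0367). Act5C and Act87E had log2 fold changes of 0.22 and -0.66 and did not pass, but Act87E passed without w1118 replicate 1, at -1.14 (adjusted p = 0.00918). These genes encode nearly identical proteins. Where their coding sequences match, the counting may have split reads between copies, so these values are uncertain. The share of such reads was not measured.

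**Figure D5:**
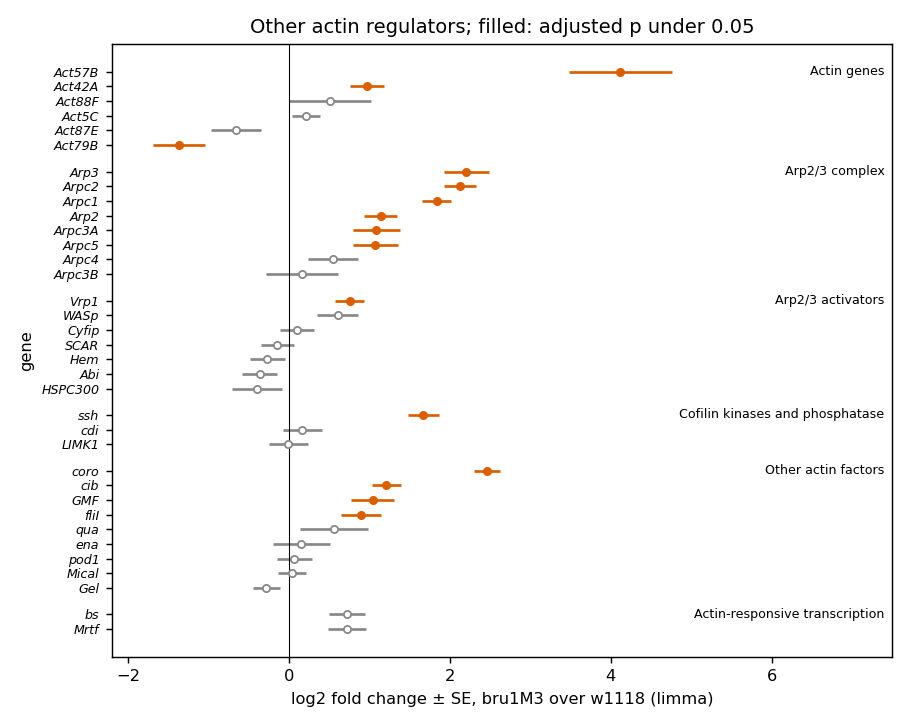
Log2 fold change of bru1M3 over w1118 (points, with bars of 1 SE from limma) for 35 other genes of actin biology in 6 lists, filled where the adjusted p was under 0.05. The filled points of the Arp2/3 complex and of coro lie to the right, whereas the actin genes spread from -1.37 to 4.12.

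Markers of other cell types moved with genotype in several lists. Hemocyte markers (3 of 4 tested lower) summed to 1314 to 1549 normalized counts in w1118 and 672 to 891 in bru1M3, neuron markers (2 of 5 lower) to 3815 to 5804 and 1479 to 2236, and gut markers (4 of 5 lower, 1 higher) to 5261 to 11712 and 990.5 to 2575. Tubular muscle markers (2 of 2 lower) summed to 4409 to 6092 and 1604 to 2728. Fat body markers (1 of 4 tested higher, 1 lower) summed to 1575 to 1613 and 1121 to 1595, and tracheal markers (none of 4 called) to 2301 to 2868 and 1998 to 3021. Tendon markers summed to 261 to 276 and 544 to 573, of which sr was higher (log2 fold change 3.10) and Tsp lower (-1.66). Photoreceptor markers were not called and were high in w1118 replicate 1 alone, at 2762 against 18.4 to 258 in the other libraries. Left without that library, all 9 genes still passed. The part of other cell types in the rises was not tested.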

How the data were processed

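IFM mRNA-Seq of w1118 and bru1M3 (2 libraries each) was analysed from tables that the authors deposited. Per the labels and methods, reads were mapped with STAR to BDGP6.22 (annotation dmel_r6.32), indexed with SAMtools and counted with featureCounts; the submitters' processing notes list STAR 2.7.3a, SAMtools 1.1, Subread 2.0.0 and DESeq2 1.32.0. Gene values were deposited as a signal: read counts divided by 1 size factor per library, called normalized counts here. The exon values that the authors deposited are a mean signal per bin over all libraries and a DEXSeq usage score per genotype. The authors' own fold changes and p-values were not used, nor were 4 further exon columns with names that no sample label carries. Exon use therefore had no test.

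Genes were tested with limma 3.58.1 (eBayes with a trend, R 4.3.3) on log2(value + 1), so fold changes are on that scale. The test covered 9228 of 10626 genes with at least 10 in at least 2 libraries, with Benjamini-Hochberg adjustment and a threshold of 0.05. All 9 genes were above 10 in every library, the lowest value being 54.5. Reads were recovered by dividing each column by the value of 1 read (0.682 to 1.70), and 100% of values came out whole within 0.02 reads. edgeR 4.0.16 and DESeq2 1.42.0 on these reads, other scalings, filters, pseudocounts, a replicate block and leaving out each library were alternatives. The limma fit was also run on simulated counts with known changes, as a check of its working. It missed some of the changed genes and called some unchanged ones, so its error rate is not settled by that check. Exon bins were annotated from Ensembl BDGP6.54, and 72 of 72 bins matched its exon edges. No sequences were printed.

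Named were all 10 listed genes and bru1, every actin gene, and of each other list the 3 largest changes among called genes, or the largest where none was called; per gene, the exon bins with the largest rise and fall. Other genes and bins were named after their values were seen. The members and lists were chosen with earlier results of these data known.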

Additional observations from a re-analysis of the deposited data

How the results depend on the processing

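All 9 genes of thin filament length and actin turnover kept their direction and their call under each of the 16 alternatives (144 of 144 values), with the highest limma adjusted p, 0.024, for twf without bru1M3 replicate 1. With libraries scaled to the same nuclear total, the median log2 fold change of all genes was -0.13. Quantile normalization gave the smallest value for cpa (1.88), tsr (1.64) and sals (1.32). Of all tested genes, 2046 were called, 891 at an adjusted p under 0.01 and between 1276 and 1839 with 1 library left out, the fewest without bru1M3 replicate 1. The share of calls that were higher was 57.9%, and 47.8% after quantile normalization, 45.4% with equal nuclear totals and 74.97% at an adjusted p under 0.01. In the 6 lists 15 genes were called, 8 at an adjusted p under 0.01 and between 10 and 13 with 1 library left out. Of the 9 lower exon bins, 4 were among the top 1% of all bins. Replicate numbers did not pair the libraries: deviations of same-numbered libraries correlated at 0.03 over genes, and a fit with the replicate number as a block called 2294 genes and 9 of the 9. No paired or leave-one-out value of exon use could be had, since the exon table gives 1 score per genotype. Depth limited twf most, at 32 reads in w1118 replicate 1.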
